A study of Mus musculus with 4 samples.

Results

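The 9 genes examined here set how a cell senses, exports and takes up cholesterol: the liver X receptors (LXR) Nr1h2 and Nr1h3, the sterol regulatory element-binding protein (SREBP) genes Srebf1 and Srebf2, the exporters Abca1 and Abcg1, the apolipoprotein Apoe, the high-density lipoprotein receptor Scarb1 and the ubiquitin ligase Mylip. They were picked by gene symbol, with no threshold on a measured value. Of the 15981 genes with a row in at least 1 table of the series, these symbols matched 8, and Nr1h3 had no row. In the data, Abcg1 was 1.42-fold higher in Tc9 than in Tc1 cells over 4 libraries and passed the test, whereas Abca1 and Apoe did not. The other members could be compared only between 1 Tc1 and 1 Tc9 library. There Scarb1, Nr1h2, Srebf1, Srebf2 and Mylip had more counts in the Tc9 library, and Nr1h3 had none listed in either. Of all genes compared between these libraries, 52.4% had a ratio above 0. For Mylip the interval for counting error contained 0.

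LXRs bind DNA as heterodimers with the retinoid X receptor, and oxysterols, oxidised forms of cholesterol, are their ligands. Their targets include Abca1, Abcg1, Apoe, Mylip and Srebf1, so that sterol excess raises export and lowers uptake. SREBPs work in the opposite direction: when membrane sterol falls, Scap carries the SREBP precursor to the Golgi, where proteases release the part that drives genes of cholesterol synthesis and uptake. Because SREBPs are activated by cleavage and LXRs by ligand, transcript levels of these regulators do not measure their activity. In CD8+ T cells this circuit is known to be tied to proliferation, which needs new membrane.

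RNA was sequenced from Thy1.1+ CD8+ T cells carrying the transgenic Pmel-1 receptor for gp100, an antigen of the B16 melanoma line, after they had been sorted from subcutaneous B16 tumors of Thy1.2+ C57BL/6 hosts. Both groups spent 5 days in culture. Cells were primed with anti-CD3 and anti-CD28 as naive CD8+ cells or, in some experiments, as splenocytes with gp100 peptide, and which was used here is not stated. The Tc9 medium held IL-4, TGF-β and an antibody to IFN-γ and the Tc1 medium rhIL-2, and the described culture ends with rhIL-2 for both groups. All hosts carried tumors of 10 days at transfer and were treated with cyclophosphamide, dendritic cells and rhIL-2 beside the transfer, and the cells were recovered 14 days later. There were 2 libraries per group, each made from the pooled RNA of several mice, so an SD here describes spread between pools and not between animals. The age of the animals was not given in the sources used here. Both receptor and hosts limit the model: every cell recognises the same antigen, and the host keeps its own Thy1.2+ T cells, macrophages and tumor cells, which the sort was meant to leave behind.

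The tables end at different gene identifiers, which decides how firmly each member can be described. Library depth ran from 30822953 to 31927162 counts. Abca1, Abcg1 and Apoe lie within the range of all 4 tables and were tested with edgeR. Scarb1, Srebf1, Srebf2, Nr1h2, Nr1h3 and Mylip lie within the range of the tables of Tc1 replicate 2 and Tc9 replicate 2 alone, so their differences are given with Wilson intervals for counting error and without a p-value. The Tc9 libraries differed from each other more than the Tc1 libraries did, with a chi-square per gene of 40.4 against 4.46. Between Tc9 replicates, 95% of 2533 genes with a mean of 10 counts or more differed by less than 0.669 on the log2 scale. This value serves as a yardstick for single-library differences. It comes from genes that Tc9 replicate 1 reaches. Scarb1, Srebf1, Srebf2, Nr1h2, Nr1h3 and Mylip are not among them, and their own spread between Tc9 replicates was not seen.

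RefSeq places the members on 8 chromosomes in build GRCm38.p6, the patch release whose primary coordinates are those of mm10. The exporters are at chr4:53030789-53159988 (Abca1) and chr17:31057694-31117984 (Abcg1). The LXR genes are at chr7:44549616-44553968 (Nr1h2) and chr2:91184061-91202829 (Nr1h3), and the SREBP genes at chr11:60199084-60224186 (Srebf1) and chr15:82147269-82205379 (Srebf2). Apoe is at chr7:19696244-19701310, Scarb1 at chr5:125277087-125341094 and Mylip at chr13:45389742-45411940. Srebf1 shares 109 exonic bases with Rai1 on the opposite strand and an exon with the microRNA gene Mir6922. Since it is not stated whether counting used strand, reads from the stretch shared with Rai1 cannot be told apart. Exons of Nr1h3 overlap those of Gm13783 on the same strand.

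RefSeq promoter sequences were at hand for 7 of the 9 members, and the 3 printed here carry elements of the sterol pathways themselves. LXR heterodimers are known to bind a direct repeat of a hexamer with a gap of 4 bases, read from either strand. The capitals in the Abca1 and Srebf1 sequences mark TGACC and GTAACC with 4 bases between them, an imperfect form of that repeat. The capitals in the Srebf2 window mark TCACCCCA, a match to the core TCACNCCA of the sterol regulatory element that SREBPs bind. Of the Abca1 window a run of 30 bases around the element is printed, chr4:53159940-53159969 on the minus strand, because the RefSeq span of the gene reaches 93 bases upstream of the start that the promoter table uses and holds this run. The Srebf1 window is chr11:60210472-60210721 on the minus strand, the 250 bases upstream of the third start listed for that gene, which lies within the gene. The Srebf2 window is chr15:82147019-82147180 on the plus strand and stops after 162 bases, where GENCODE places the first exon, upstream of the RefSeq start.
Abca1: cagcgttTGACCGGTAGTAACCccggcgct
Srebf1: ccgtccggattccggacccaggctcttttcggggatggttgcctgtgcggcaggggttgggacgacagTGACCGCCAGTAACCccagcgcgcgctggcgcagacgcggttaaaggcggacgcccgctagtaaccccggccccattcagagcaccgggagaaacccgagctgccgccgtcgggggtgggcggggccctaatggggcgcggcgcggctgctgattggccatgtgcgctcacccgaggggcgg
Srebf2: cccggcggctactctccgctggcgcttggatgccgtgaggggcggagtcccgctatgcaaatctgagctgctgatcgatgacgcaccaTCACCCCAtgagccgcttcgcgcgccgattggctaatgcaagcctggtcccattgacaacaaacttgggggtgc

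Counted from the starts in the promoter table, the spaced element of Abca1 begins 67 bases upstream and that of Srebf1 182 bases upstream. Searched on both strands of the 250 bases before each start, this spelling occurred in 0.0365% of the 32851 promoter windows, which belong to 9 genes, and it was written down after these sequences had been seen. Fasn, the fatty acid synthase gene and another LXR target, was the remaining gene of the sterol lists to hold it. The exact repeat of AGGTCA with 4 bases between occurred in 0.0152% of windows and in no member. The sterol regulatory core occurred in 3.67% of windows, among them the Srebf2 window and the first Apoe window, where it begins 213 bases before the start. These matches describe letters, and binding was not measured. The counts of the genes that share the spaced element can be set side by side. From the replicate 2 library of Tc1 to that of Tc9, Abca1 went from 74 to 69 counts, Srebf1 from 3546 to 5276 and Fasn from 28717 to 44281. Tc9 replicate 1, whose table also reaches Fasn, gave 29485 counts, close to the Tc1 library, and the edgeR fit of those 3 libraries gave Fasn a log2 fold change of 0.33 (adjusted p = 0.328).

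Abcg1, which moves cholesterol to high-density lipoprotein, was the member that passed the test. Tc1 replicates 1 and 2 gave 515 and 487 counts, and Tc9 replicates 1 and 2 gave 684 and 735. On the length-scaled measure these were 2.85 and 2.68 FPKM (fragments per kilobase of gene, scaled to library size) in Tc1 and 3.87 and 4.2 FPKM in Tc9. Both Tc9 libraries lay above both Tc1 libraries. The mean normalised level was 15.92 ± 0.587 CPM (counts per 1000000 counts of library depth, TMM-scaled) in Tc1 (SD, n = 2) and 22.61 ± 1.16 CPM in Tc9 (SD, n = 2). The log2 fold change was 0.51 with an SE of 0.12 and a 95% interval of 0.24 to 0.77 (edgeR quasi-likelihood test, Benjamini-Hochberg adjusted p = 0.0104). Of the 1284 genes tested in these 4 libraries, 17.4% were higher in Tc9 at an adjusted p below 0.05, and 1 of the 3 members tested was among them. The call rests on both Tc1 libraries: without Tc1 replicate 1 the log2 fold change was 0.539 with an edgeR adjusted p of 0.128, and without Tc1 replicate 2 it was 0.475 with an edgeR adjusted p of 0.207. In both of these fits the spread comes from the Tc9 pair, and the lone Tc1 library is assumed to vary like it.

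Abca1, which loads cholesterol on to lipid-poor apolipoprotein A-I, had the lowest FPKM of the members with a row. The Tc1 libraries gave 61 and 74 counts and the Tc9 libraries 86 and 69, that is 0.19 and 0.23 FPKM against 0.27 and 0.22 FPKM. The groups overlapped, since Tc9 replicate 2 lay below Tc1 replicate 2. The means were 2.146 ± 0.298 CPM in Tc1 and 2.47 ± 0.383 CPM in Tc9 (SD, n = 2 each). The log2 fold change of 0.20 (SE 0.23) did not pass the edgeR test, with an adjusted p of 0.528. Its 95% interval ran from -0.32 to 0.72 and so contains the fold change of Abcg1. A difference between the exporters in their response was not tested. The value moved with the libraries used, from 0.0336 without Tc9 replicate 1 and 0.0631 without Tc1 replicate 1 to 0.356 without Tc9 replicate 2 and 0.357 without Tc1 replicate 2.

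Apoe, an apolipoprotein that accepts cholesterol and is an LXR target in macrophages, stood at 440 and 416 counts for Tc1 against 345 and 398 for Tc9. Its FPKM were 12.36 and 11.62 in Tc1 and 10.06 and 11.6 in Tc9. Both Tc9 libraries lay below both Tc1 libraries, with only a small gap between the replicate 2 libraries. The means were 13.6 ± 0.502 CPM and 11.84 ± 1.2 CPM (SD, n = 2 each). The log2 fold change of -0.20 (SE 0.14, 95% interval -0.51 to 0.10) did not pass the edgeR test, with an adjusted p of 0.277. Groups that do not overlap are frequent here: 70.4% of all genes tested had them, as did 2 of the 3 members, and 34.1% were called in either direction. Without Tc9 replicate 2, whose level was nearer to Tc1, the log2 fold change of Apoe was -0.303 with an edgeR adjusted p of 0.0167, for which the closely matched Tc1 pair supplied all of the spread.

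**Figure D1:**
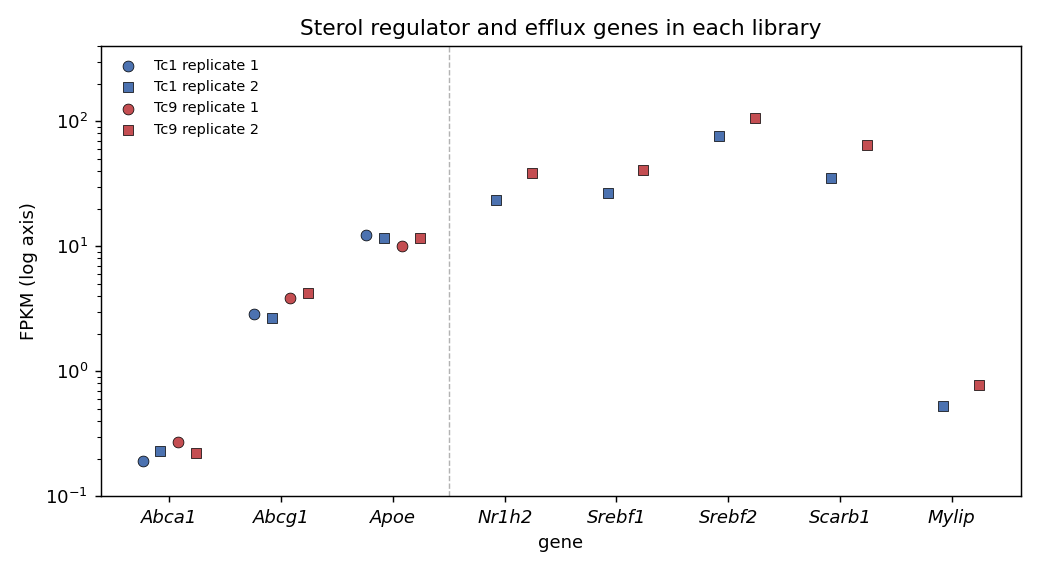
FPKM of the 8 members with a row, on a log axis, 1 point per library, with Tc1 in blue, Tc9 in red, circles for replicate 1 and squares for replicate 2; right of the dashed line only the replicate 2 tables reach the gene. Srebf2 is highest at 76.61 and 106.8 FPKM and Abca1 lowest, and the Tc9 square is above the Tc1 square for every gene but Abca1 and Apoe.

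RNA of other cells in the sort was looked for with marker genes, because Apoe and Cd68 are typical of macrophages and a sorted fraction of a tumor can hold them. In bulk RNA, fewer cells of a type and less RNA per cell cannot be told apart. Of the 6 macrophage and monocyte markers within the range of all 4 tables, 5 had at most 3 counts in every library: C1qa had 1, 0, 0 and 0 counts in Tc1 replicates 1 and 2 and Tc9 replicates 1 and 2, C1qb 0, 1, 0 and 1, Cd14 1 in each, and C1qc none. The exception was Cd68, at 226 and 221 counts for Tc1 against 358 and 439 for Tc9, which rose by 0.84 on the log2 scale (edgeR adjusted p = 0.00295). The summed level of the list was 7.162 and 7.047 CPM in Tc1 and 11.54 and 14.3 CPM in Tc9. Without Cd68 it was 0.0628 and 0.125 CPM in Tc1 and 0.0321 and 0.0649 CPM in Tc9, far below Apoe. Cd68 thus moved with Abcg1, and its part in that result was not tested. Apoc1 and Apoc2, which lie beside Apoe, had at most 1 count in any library. Of the CD8 T cell markers, Cd8a stood at 21622 and 21532 counts for Tc1 against 21166 and 19330 for Tc9. Of the 8 of these markers tested over 4 libraries, 2 rose in Tc9, Cd3e (log2 fold change 0.73, edgeR adjusted p = 0.0108) and Cd3g (0.49, edgeR adjusted p = 0.00995), and 2 fell, Cd5 (-0.61, edgeR adjusted p = 0.00397) and Cd2 (-0.44, edgeR adjusted p = 0.0107). Their part in the members' results was not tested. In the replicate 2 tables the melanoma markers Tyrp1, Sox10 and Dct were at 0. Pmel had 69.97 expected counts in Tc1 and 116.5 in Tc9, and Tyr 6 and 12.89. Among the B cell, NK cell and stromal markers in these libraries, Pecam1 had 445 counts in Tc1 and 446 in Tc9. The others of that list had at most 10 counts. The part of all these markers in the members' levels was not tested.

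**Figure D2:**
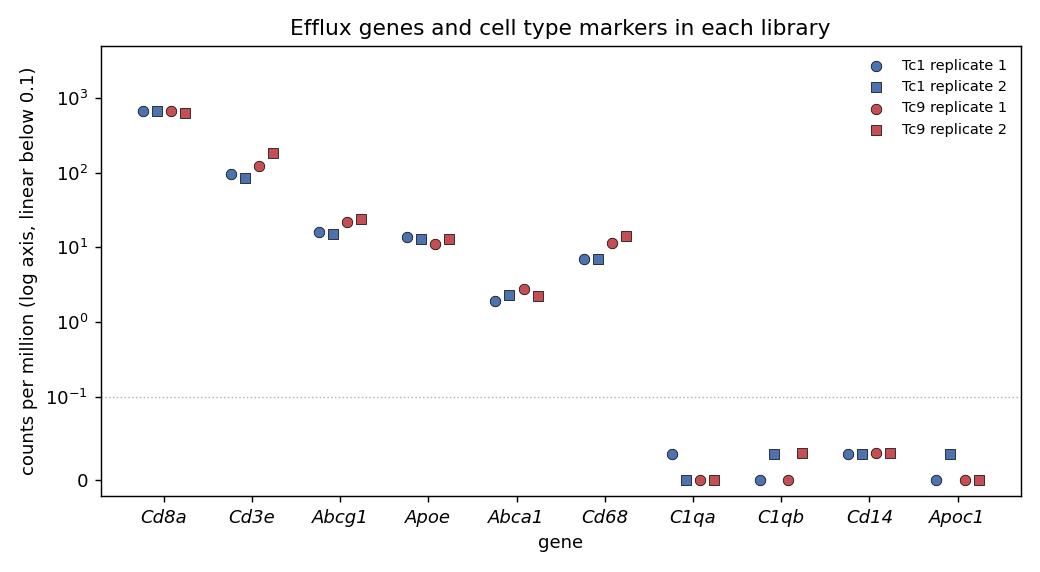
CPM scaled by depth (log axis, linear below 0.1) of the CD8 T cell markers Cd8a and Cd3e, the efflux genes Abcg1, Apoe and Abca1, the macrophage markers Cd68, C1qa, C1qb and Cd14, and Apoc1, 1 point per library, Tc1 blue and Tc9 red. C1qa, C1qb, Cd14 and Apoc1 have 0 or 1 count in each library, whereas Cd68 lies near the level of Apoe and is higher in both Tc9 libraries.

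Nr1h2, which encodes LXRβ, was the LXR gene with a row. It went from 1442 counts (23.6 FPKM) in the replicate 2 library of Tc1 to 2265 counts (38.49 FPKM) in that of Tc9. The log2 ratio of normalised counts was 0.65 (95% Wilson interval 0.56 to 0.75), just inside the yardstick of 0.669, and 81.4% of the genes compared had a smaller ratio. Nr1h3, which encodes LXRα, the form found mainly in liver, fat and macrophages, had no row in either replicate 2 table although both reach its identifier, and is taken as 0 counts. A count of 0 allows up to 3 counts, or 0.0940 CPM in Tc1 replicate 2 and 0.0973 CPM in Tc9 replicate 2. Transcripts of LXRα were therefore not listed at this depth, whereas those of LXRβ were abundant. A missing row cannot tell an absence of reads from a gene left out of the counting.

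The 2 SREBP genes were among the more highly expressed genes. Srebf2, whose product drives cholesterol synthesis, went from 10857 counts (76.61 FPKM) in Tc1 to 14586 counts (106.8 FPKM) in Tc9. It exceeded 91.4% of the genes listed for Tc1 replicate 2 and 95.8% of those listed for Tc9 replicate 2. Its log2 ratio was 0.43 (95% Wilson interval 0.39 to 0.46), inside the yardstick of 0.669. Srebf1, which governs fatty acid synthesis and is itself an LXR target, had 3546 counts (26.55 FPKM) and 5276 counts (40.93 FPKM), a log2 ratio of 0.57 (95% Wilson interval 0.51 to 0.64). Counts were summed over the starts of Srebf1, so the form made from the start with the spaced element cannot be separated from the others.

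Scarb1, the receptor that exchanges cholesterol with high-density lipoprotein, had the largest ratio among the members. It went from 2639 counts (34.99 FPKM) in Tc1 to 4687 counts (64.33 FPKM) in Tc9, a 1.78-fold difference. The log2 ratio of 0.83 (95% Wilson interval 0.76 to 0.90) was the only one of a member beyond 0.669 with TMM scaling, and 86.3% of genes had a smaller ratio. Mylip, which marks lipoprotein receptors such as Vldlr for degradation, was rare, with 48 counts (0.53 FPKM) and 68 counts (0.78 FPKM). Its log2 ratio of 0.49 had a 95% Wilson interval of -0.03 to 1.03, so at this depth counting error alone spans no difference.

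Across the replicate 2 libraries, 6 of the 8 members with a row had a ratio above 0 and 2 had a ratio below 0. Over all 6161 genes that passed the filter on low counts, 52.4% had a ratio above 0. The median log2 ratio was 0.53 over the members and 0.03 over all genes. Beyond the yardstick in the direction of Tc9 were 1 of 8 members, Scarb1, and 18.1% of all genes, a share no smaller than that of the members. This count depends on the scaling, since the Nr1h2 ratio was 0.701 with library depth alone, 0.683 on log2(FPKM + 1) and 0.703 on log2(FPKM + 0.1), all past 0.669. Low counts vary more, and the same limit within count classes was 1.0 for genes of 10 to 100 counts, 0.594 for 100 to 1000 counts and 0.494 for over 1000 counts. By these class limits 3 of the 8 members, Scarb1, Nr1h2 and Srebf1, lay above the limit, beside 20% of all genes and 15.4% of the 2977 genes with over 1000 counts, the class of these 3. Srebf2, Abcg1 at 0.593 and Mylip lay inside. With 1 library per group these limits describe the Tc9 replicates and are not a test.

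**Figure D3:**
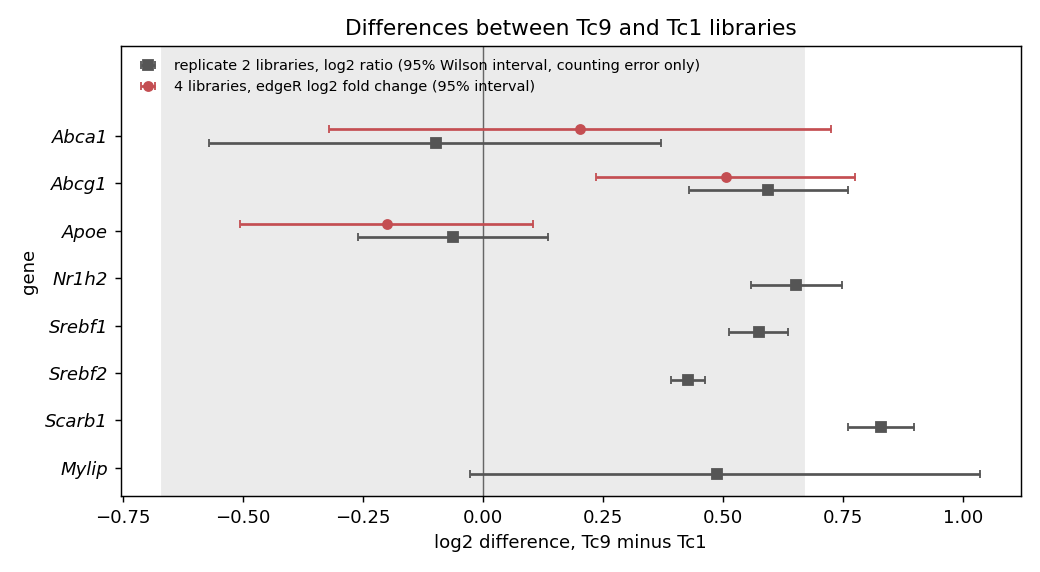
Log2 difference, Tc9 minus Tc1, of the 8 members: red circles give the edgeR fold change over 4 libraries with its 95% interval, grey squares the ratio of the replicate 2 libraries with a 95% Wilson interval that covers counting error only, and the shaded band spans 0.669 to either side of 0, the range of 95% of genes between Tc9 replicates. The interval of Abcg1 lies above 0 at 0.24 to 0.77, those of Abca1 and Apoe contain 0, and with TMM scaling Scarb1 alone lies outside the band.

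The order of the members' FPKM levels was the same in Tc1 replicate 2 and Tc9 replicate 2: Srebf2, Scarb1, Srebf1, Nr1h2, Apoe, Abcg1, Mylip and Abca1. Srebf1 and Nr1h2 were the closest neighbours, at 0.17 apart in Tc1 and 0.0887 in Tc9 on the log2 FPKM scale. Scarb1 and Srebf1 were 0.398 apart in Tc1 and 0.652 in Tc9. Every other neighbouring pair was farther apart than these in both libraries. The yardstick of 0.669 describes the same gene between replicates and does not measure gaps between genes. Among the members with a row, Srebf2, Srebf1, Nr1h2 and Scarb1 thus stood above Apoe and the exporters, and Abcg1 exceeded Abca1 by FPKM in all 4 libraries.

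The members' surroundings in the pathway were described with 83 further genes in 7 lists. In the 4-library range 5 of them could be tested with edgeR and 2 were higher in Tc9, beside 17.4% of all genes tested there. Without Tc1 replicate 1 the count was 1, and without Tc1 replicate 2 it was 0, with 2 list genes higher at an unadjusted p under 0.05; DESeq2 on all 4 libraries called 1. Fdps, Acat2 and Hsd3b7, enzymes of sterol and bile acid synthesis, overlapped between groups.

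A fit of 3 libraries, Tc1 replicate 2 and both Tc9 libraries, reached 21 genes of these lists, and it assumes that the lone Tc1 library varies like the Tc9 libraries. In it 12.5% of 2622 genes were higher in Tc9, and 3 of the 21 were. Cyp11a1, which converts cholesterol to pregnenolone in mitochondria, stood at 249 counts in the Tc1 library against 1856 and 2036 in those of Tc9 (log2 fold change 2.94). Both Tc9 libraries stood well above the Tc1 library, whose own spread this fit does not hold. Cd5l, a macrophage-secreted protein and LXR target, is among these 3 but passed the filter only through Tc9 replicate 2: it had 1 and 0 counts in Tc1 replicates 1 and 2 against 6 and 14 in those of Tc9, and no fold change or p-value is given for it. It did not pass the filter in the 4-library range or in the replicate 2 libraries. Of the 7 enzymes of cholesterol synthesis tested, Lss (edgeR adjusted p = 0.0586) and Dhcr7 (edgeR adjusted p = 0.0647) came nearest to the threshold. With no filter on low counts edgeR called 0 genes in this fit, though 611 had an unadjusted p under 0.05, and the edgeR adjusted p of Cyp11a1 was 0.123; DESeq2 called 3 genes of the lists.

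In the replicate 2 libraries 46 of the 83 genes passed the filter, 38 of them with a ratio above 0 and 8 below, and the median log2 ratio was 0.42 against 0.03 over all genes. Over all genes 52.4% had a ratio above 0. Beyond the yardstick were 13 of the 46 in the direction of Tc9 and 0 in the direction of Tc1, beside 18.1% and 10.1% of all genes. Among LXR partners and co-regulators, all 5 genes had ratios above 0, and Rxra, a heterodimer partner of LXR, went from 738 to 2880 counts, a log2 ratio of 1.96. Ncoa1, a coactivator of nuclear receptors, went from 1064 to 1712 counts (0.69).

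Of 6 other LXR targets, all were above 0 and 2 beyond the yardstick: Pltp, which moves phospholipid between lipoproteins, from 27.03 to 85.11 expected counts (1.59), and Scd1, the stearoyl-CoA desaturase, from 6885 to 15557 counts (1.18). Lipoprotein uptake had the highest median of the lists with more than 2 genes past the filter, 0.76 over 6 genes. In it 4 genes lay beyond the yardstick, among them Vldlr (1.23) and Lrp1 (0.75). For Lrp1 the 3-library fit, with 364 counts in Tc1 against 418 and 613 in Tc9, gave a smaller log2 fold change of 0.47 (edgeR adjusted p = 0.191). Vldlr, a receptor for triglyceride-rich lipoproteins, went from 196 to 463 counts.

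All 5 genes of SREBP processing had ratios above 0 and none lay beyond the yardstick, and Scap, the SREBP escort, had 3101 and 4581 counts (0.56). Of 13 synthesis enzymes 10 were above 0, with a median of 0.30, and Mvk (0.91), Dhcr7 (0.86) and Lss (0.71) lay beyond the yardstick. Transport, storage and high-density lipoprotein genes were mixed, with 5 of 9 above 0 and a median of 0.12. Soat1, which esterifies cholesterol for storage, went from 730 to 1467 counts (1.01), while Gramd1b, a carrier of cholesterol from the plasma membrane, went from 4993 to 3687 counts (-0.44). In the list of oxysterol enzymes 2 genes passed the filter, Cyp11a1, which forms pregnenolone, with a log2 ratio of 3.02, and Hsd3b7 with -0.09. Others of that list were near the floor. Ch25h had 0 counts in Tc1 and 4 in Tc9, Cyp46a1 had 0 and 3, and Cyp27a1 had 0 in both.

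**Figure D4:**
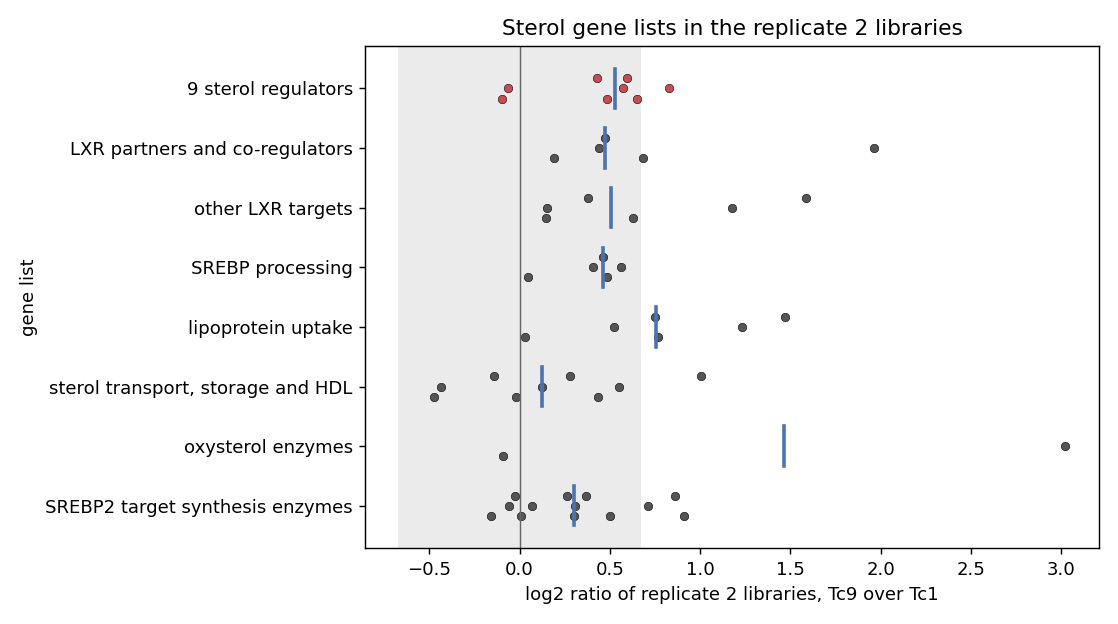
Log2 ratio of Tc9 replicate 2 over Tc1 replicate 2 for each gene that passed the filter, 1 point per gene, by list; blue bars are list medians and the shaded band spans 0.669 to either side of 0. The 9 sterol regulators (8 with a row, red) have a median of 0.53, lipoprotein uptake 0.76 and transport genes 0.12, and the points beyond the band are on the side of Tc9.

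The genes whose pattern over the 4 libraries was most like that of a tested member were found by the largest difference of mean-centred log2 CPM in any library. For Abcg1 these were Tmem250-ps (0.0098), Baz2a (0.049) and Bsg (0.067). For Apoe they were Fancf (0.037), Aga (0.045) and Ccnf (0.048). For Abca1 they were Gm20939 (0.063), Adk (0.078) and Zfp518b (0.083). None of these genes is in the sterol lists.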

How the data were processed

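RNA of tumor-infiltrating Tc1 and Tc9 cells was sequenced as 2 libraries per group. The authors deposited, per library, the expected count of each gene, not normalized, and its FPKM, scaled by gene length and library size. Their processing notes name mm10; aligner, counting program and strandedness are not given in the sources used here. Genes are in the character order of their identifiers, each table ends at another identifier, and genes inside a table's span that it leaves out were counted as 0. Library depth was 31834276 and 31927162 counts for Tc1 and 31105615 and 30822953 for Tc9; for the 3 shorter tables it was derived from the ratio of count to FPKM against the complete table of Tc9 replicate 2. A row of Tc1 replicate 1 that was incomplete was dropped (1 row).

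Expected counts were rounded and fitted with edgeR 4.0.16 in R 4.3.3 (TMM factors, filterByExpr with a minimum count of 10, quasi-likelihood test, two-sided, Benjamini-Hochberg adjustment over all genes tested). The 4-library range held 1681 genes, the 3-library range 3436 and the replicate 2 range 7829. Log2 ratios of the replicate 2 libraries used the same TMM factors and a prior count of 2. Intervals and floors cover counting error only. Nothing says that the pools were independent experiments, so p-values measure the spread between these pools. The fits were tested on simulated data first. DESeq2 1.42.0 and limma 3.58.1 served as alternatives.

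The members, lists and tests were chosen with earlier results of these data known. Named beside the members were genes of the lists past an adjusted p of 0.05 or beyond the spread of 95% of genes between Tc9 replicates. The 3 nearest patterns per tested member and the most abundant and absent markers were also named. Scap, Fasn, Gramd1b, Fdps, Acat2, Hsd3b7, Ch25h, Cyp46a1, Cyp27a1, Apoc1 and Apoc2 were added after their values were seen. Some genes of the lists are counted but not reported here by name. Promoters are from RefSeq (GRCm38.p6), exons from GENCODE vM21.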

Additional observations from a re-analysis of the deposited data

How the results depend on the processing

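Over the alternatives run, 100 of 128 values were classed as unchanged, and no fold change or ratio reversed. For a tested fold change unchanged means the same side of the threshold, and for a ratio within its error. For a count of genes it means only a limited change in number, with no threshold or error involved. Abcg1 stayed called under every alternative with 4 libraries; with 1 left out its log2 fold change was 0.457 to 0.555, and without Tc1 replicate 1 or 2 (0.539 and 0.475) it missed the threshold. Apoe ranged from -0.303 to -0.103 and passed without Tc9 replicate 2, and Abca1 ranged from 0.0336 to 0.357 and was 0.041 with limma on log2(FPKM + 1), never past the threshold. With 1 library left out, 99 to 424 genes were higher and 74 to 430 lower in Tc9, against 224 and 214, and 0 to 3 sterol genes were higher. The cause was not tested. Without the filter 139 genes were lower and 0 sterol genes were higher in the 4-library fit (3 at an unadjusted p under 0.05), and none of any kind (0 higher, 0 lower, 0 sterol genes) in the 3-library fit. DESeq2 called 1 sterol gene, as did limma on log2(FPKM + 1) (1) and on log2(FPKM + 0.1) (1), and in 3 libraries DESeq2 called 217 higher and 121 lower. There, depth alone gave 5 sterol genes and an adjusted p under 0.1 gave 5. The Srebf2 ratio was 0.477 with depth alone, 0.474 on log2(FPKM + 1) and 0.479 on log2(FPKM + 0.1). TMM factors computed over the replicate 2 range were added after seeing the data and moved no member beyond its error. Nr1h3, with no row, gave no ratio.

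The labels do not say whether same-numbered libraries were paired. Their deviations correlated at -0.0831 across 1284 genes, which cannot settle pairing with 2 libraries per group. Adding a replicate block gave 231 calls up and 213 down in Tc9, of which 406 were shared with the fit without it, and the log2 fold changes were 0.505 for Abcg1 (edgeR adjusted p = 0.00756), 0.201 for Abca1 and -0.203 for Apoe. Depth limits Nr1h3, Abca1 and Mylip, and 1 library per group limits 6 of the 9 members.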
